A study of Homo sapiens with 6 samples.

Results

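The 50 genes described here are regulators of apoptosis, among 34834 human genes with a transcript in the files. They were listed by symbol and not selected by any measured value, although earlier results of these data were known. They comprise the BCL2 family, the proteins that mitochondria release, the inhibitors of caspases, the caspases, the death receptors with their ligands and adaptors, the regulators MDM2 and MDM4, the oxidoreductase TP53I3, and the DNA fragmentation factors. For the comparison, 12 were taken as anti-apoptotic and 32 as pro-apoptotic. The other 6 (BCL2L12, BCL2L13, RIPK1, DFFA, CASP1 and CASP4) were placed in neither group. RNA was sequenced from SKOV3, an established human ovarian cancer cell line. The cells had been transfected with a pool of siRNAs against the long non-coding RNA DNM3OS (3 samples, here the knockdown) or with a pool of non-targeting siRNAs (3 samples, here the control). Both groups received 50 nM siRNA with the same transfection reagent and were compared at 48 h, so neither shows untransfected cells. The labels do not say whether the samples came from separate cultures, so p-values measure only the spread between these samples. The comparison asked whether the balance of death-promoting and survival genes differed when DNM3OS was targeted. None of the 6 transcripts that the annotation gives for DNM3OS was among those quantified (0 of 6), so these values cannot show how far the target was reduced.

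Apoptosis is the ordered death of a cell by proteases called caspases. In the mitochondrial route, BH3-only proteins engage the survival members of the BCL2 family and the pore formers BAX and BAK, and cytochrome c then leaves the mitochondria and joins APAF1 to activate CASP9. In the receptor route, ligands such as FASLG and TNFSF10 bind death receptors, which recruit FADD and CASP8. XIAP and the cellular inhibitor of apoptosis proteins restrain these steps, and CFLAR restrains CASP8 at the receptor. Carcinoma cells commonly depend on these survival proteins, and much of the control lies in protein binding and cleavage, which RNA levels do not show.

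The libraries held 1610937 to 1995888 estimated counts, of which 93.6% to 95.2% fell on annotated genes, so 3 counts correspond to 1.40 to 2.11 CPM (counts scaled to the size of the library). Knockdown replicate 1 stood apart from the others of its group, with a chi-square per degree of freedom of 11.3 and 11.8 against replicates 2 and 3, which differed from each other by 2.23. The 88 ribosomal protein genes held 0.236% of counts in knockdown replicate 1 and 0.325% in control replicate 2, and 0.389% to 0.552% in the other 4 libraries. Deviations of these 2 libraries from their group means correlated across genes at 0.53, genes not being independent replicates. Group results are therefore given with and without them, as are estimates of single genes that moved strongly. Transcripts with an exon opposite an exon of another gene made up 18% of the annotated transcripts. They held 52.8% to 61.4% of counts, in or outside the shared bases. The library kit keeps the strand of the RNA, but the strand setting of the quantification is not stated. A value may therefore include reads of a gene on the other strand, which cannot be told apart here. All 8 epithelial and ovarian carcinoma markers were detected in every library (summed level 1006 to 2299 CPM, lowest in knockdown replicate 1). KRT8 gave most of that sum (782 to 1800 CPM), and ERBB2 had 145 to 497 CPM. KRT7 (2.35 to 8.42 CPM), EPCAM, PAX8 and CDH1 (8.84 to 27.45 CPM) lay below the leukocyte gene PTPRC (51.8 to 82.1 CPM) in every library. KRT18 and KRT19 lay above PTPRC in some libraries and below it in others. Leukocyte markers were not all at 0 (2 or 3 of 4 above 0, summed 68.9 to 94.7 CPM), with CD14 at 0 in every library. Endothelial markers summed to 16.8 to 31.2 CPM (1 to 3 of 3 above 0) and fibroblast markers to 25.6 to 39.3 CPM (2 or 3 of 3 above 0). The part of these values in the results was not tested.

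No apoptosis regulator was called different between knockdown and control. Of the 50 genes, 38 passed the filter on low counts and were tested, 17 with a higher and 21 with a lower estimate in the knockdown, and 0 were at least 2-fold different with an adjusted p below 0.05. Over all 11814 tested genes, 1 was called (0.00846%). At an unadjusted p below 0.05, 0 of the 38 passed in edgeR's exact test, against 344 of all tested genes (2.91%). In the quasi-likelihood test without a block and in DESeq2, 0 also passed, against 2.95% and 1.63% of all tested genes. CYCS alone (1 of 38) had CPM values that did not overlap between the groups, against 7.97% of all tested genes. Every tested member had an adjusted p of 1 in edgeR's exact test with Benjamini-Hochberg adjustment. The median log2 fold change was -0.08 over the tested members and 0.00 (0.0045) over all tested genes. In bulk RNA, fewer cells of a kind and less RNA per cell cannot be told apart.

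**Figure D1:**
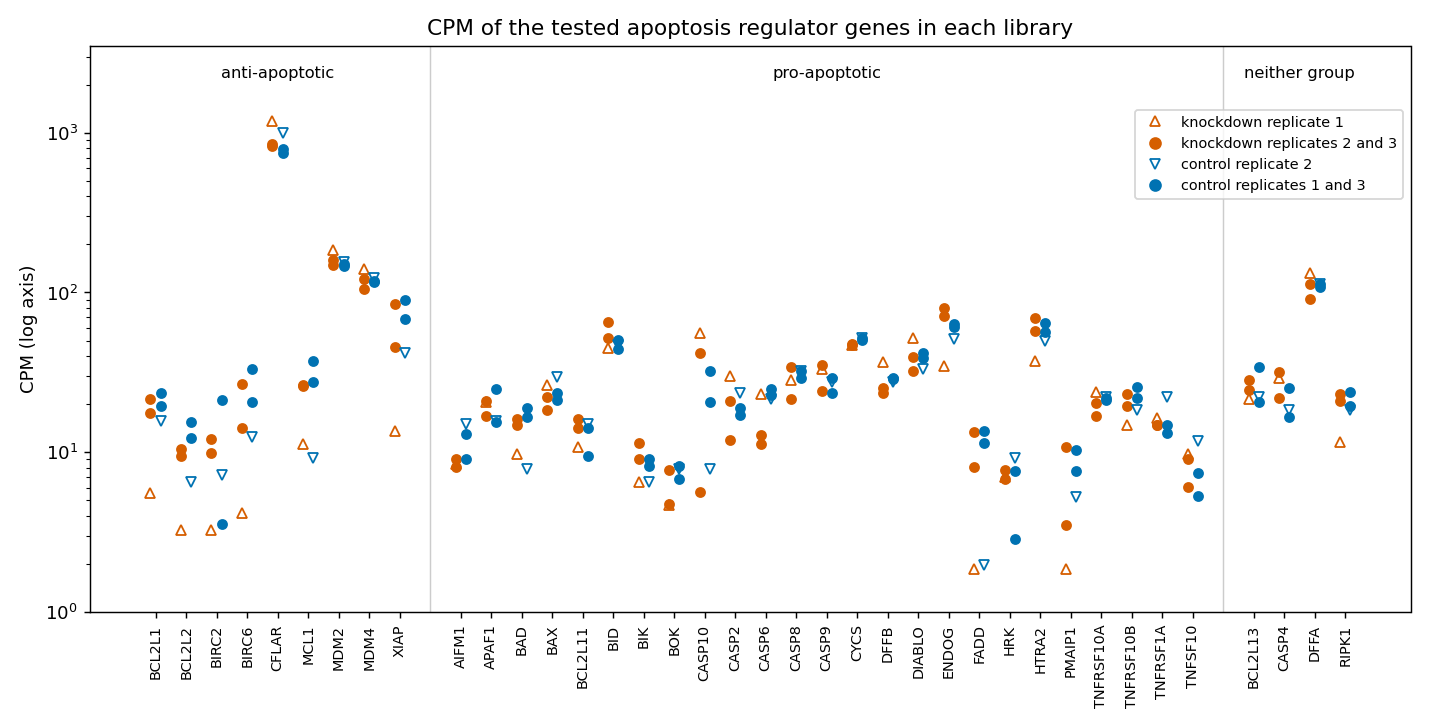
CPM on a log axis of the 38 tested members in each of 6 libraries, in alphabetical order within the anti-apoptotic, pro-apoptotic and remaining genes, with 1 point per library. Knockdown replicate 1 (open triangles) lay lowest of all libraries for the survival genes BCL2L1, BCL2L2, BIRC2, BIRC6 and XIAP, while knockdown and control points overlapped for every gene but CYCS.

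The survival genes had the lower median, and its size depended on knockdown replicate 1. Of 12 anti-apoptotic genes, 9 were tested, 3 higher and 6 lower, with a median log2 fold change of -0.36. Of 32 pro-apoptotic genes, 25 were tested, 12 higher and 13 lower, with a median of -0.08. Set against the control mean, the survival genes had a median log2 difference of -1.11 in knockdown replicate 1, but 0.02 and 0.03 in knockdown replicates 2 and 3. The controls gave 0.09, -0.28 and 0.01. Thus only knockdown replicate 1 lay clearly below, and the next lowest was control replicate 2, the other library with a low ribosomal protein share. Without knockdown replicate 1 the survival genes' median was -0.00 (-0.0013), with 5 of 9 lower. Without both libraries it was -0.15, with 7 of 9 lower. The pro-apoptotic genes gave between -0.06 and 0.04 in every library. Their median was -0.08 without knockdown replicate 1 (14 of 25 lower) and -0.11 without both libraries (16 of 25 lower). Of all tested genes with a value without both libraries, 5598 of 11617 were lower. The 4 tested genes of neither group had a median of -0.02. When counts were rebuilt from TPM (a level that allows for transcript length), the survival genes' median turned to 0.03.

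Knockdown replicate 1 was the lowest of 6 libraries for 13 of 38 tested members (34.2%, against 29.8% of all tested genes) and the highest for 9 (23.7%, against 28.1%). Among these 13 were BCL2L1, BCL2L2, XIAP, BIRC2, BIRC6 and FADD, and among these 9 were CFLAR, MDM2, MDM4, CASP10 and DIABLO. Without knockdown replicate 1 the estimates of 15 of 38 members changed sign, among them those of the survival genes BCL2L1, MCL1, BIRC2, CFLAR and MDM4. Without both that library and control replicate 2, 10 differed in sign from the estimate with all 6 libraries.

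**Figure D2:**
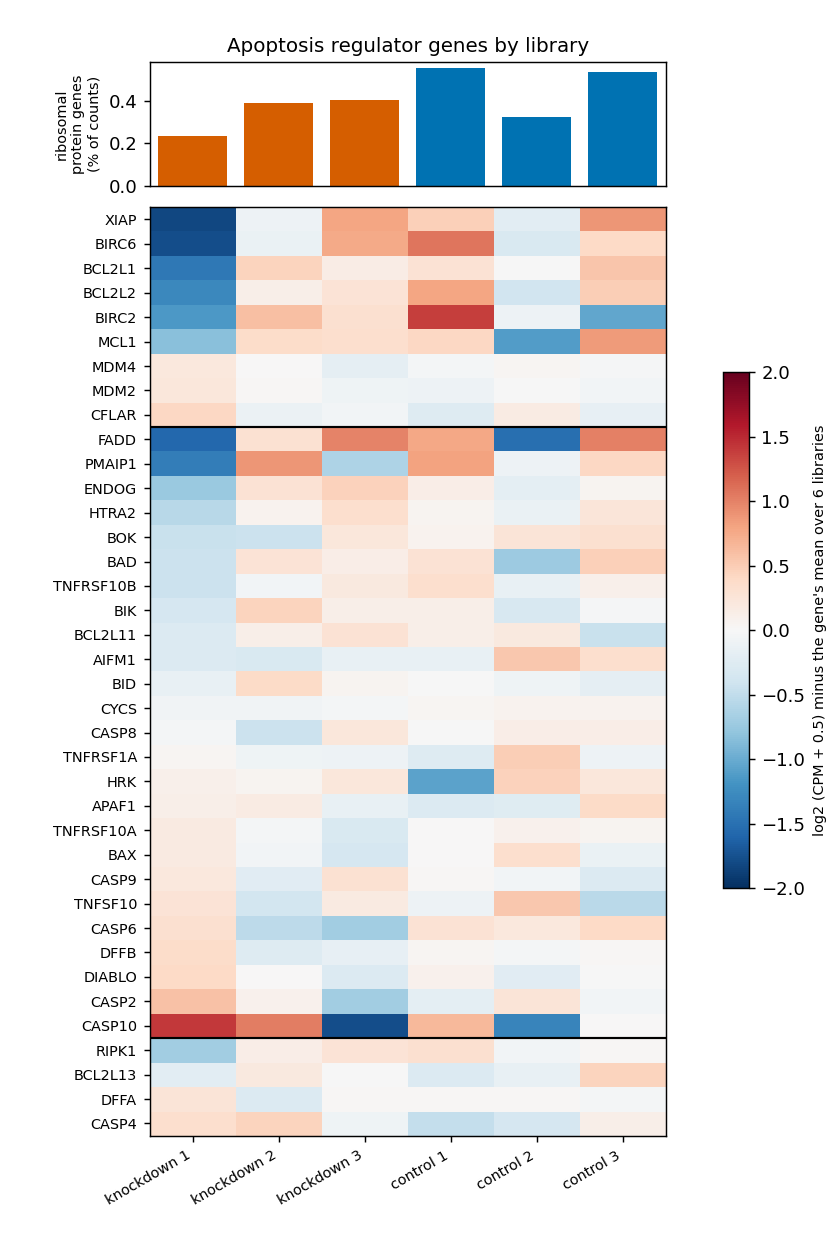
Bars show what share of counts fell on ribosomal protein genes (%) in each library. The colour map shows log2 (CPM + 0.5) of the 38 tested members minus the gene's mean over 6 libraries, with anti-apoptotic genes above the first line, pro-apoptotic genes between the lines and the other 4 below, each sorted by knockdown replicate 1. XIAP, BIRC6, BCL2L1, BCL2L2 and BIRC2 had their lowest value in knockdown replicate 1.

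Among the survival members of the BCL2 family, BCL2L1, which encodes BCL-XL, had 5.58, 21.6 and 17.5 CPM in knockdown replicates 1 to 3 and 19.4, 15.7 and 23.5 CPM in control replicates 1 to 3. Knockdown replicate 1 was the lowest library and the other values overlapped. The log2 fold change was -0.42 ± 0.57 (SE, n = 3 per group), and 0.01 without knockdown replicate 1. BCL2L2, which encodes BCL-W, had 3.26, 9.46 and 10.5 CPM in the knockdown and 15.4, 6.55 and 12.3 CPM in the control (log2 fold change -0.61 ± 0.55, SE). Its estimate was the lowest of the 38 tested members, yet control replicate 2 lay below 2 of 3 knockdown values, and it was -0.19 without knockdown replicate 1. MCL1, a short-lived survival protein, had 11.2, 26.3 and 26.0 CPM in the knockdown and 27.3, 9.17 and 37.1 CPM in the control. Here control replicate 2 was the lowest library and knockdown replicate 1 the next lowest. Its log2 fold change of -0.23 ± 0.69 (SE) became 0.10 without knockdown replicate 1, and 0.45 when counts were rebuilt from TPM. BCL2 itself was too low to test, with 0, 3 and 2 counts in the knockdown and 1 in each control. BCL2A1 had 0 counts in every library, which at 3 counts per library allows up to 1.40 to 2.11 CPM.

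No pore-forming member passed the test. BAX had 26.5, 22.3 and 18.2 CPM in the knockdown and 23.4, 29.5 and 21.2 CPM in the control, with fully overlapping groups (log2 fold change -0.12 ± 0.20, SE). BAK1 was too low to test, with 0, 1 and 0 counts against 1, 0 and 12, and control replicate 3 held all but 1 of the control counts. BOK, a relative of BAX and BAK, had 4.65, 4.73 and 7.72 CPM in the knockdown and 6.84, 7.86 and 8.23 CPM in the control. Its log2 fold change was -0.44 ± 0.21 (SE) with an exact two-sided permutation p of 0.2, and 2 of 3 knockdown libraries lay below all controls.

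Of 8 BH3-only genes, which sense damage and trigger the pore formers, 6 were tested, 4 higher and 2 lower, with a median of 0.10. BID, which links death receptors to mitochondria once it is cleaved, had 45.1, 65.5 and 51.9 CPM in the knockdown and 50.1, 47.1 and 44.1 CPM in the control. Knockdown replicates 2 and 3 lay above all controls and replicate 1 did not (log2 fold change 0.19 ± 0.16, SE). PMAIP1, which encodes NOXA, a partner of MCL1, ranged from 1.86 to 10.8 CPM in the knockdown and from 5.24 to 10.3 CPM in the control (log2 fold change -0.56 ± 0.63, SE). The estimate was -0.09 without knockdown replicate 1 and -1.57 without knockdown replicate 2. Knockdown replicate 2 was the highest library and replicate 1 the lowest, so the spread within the group exceeded the difference. BCL2L11, which encodes BIM, had 10.7, 14.2 and 16.1 CPM against 14.2, 15.1 and 9.41 CPM, and its groups overlapped. About 97.0% of its counts were assigned to 1 short transcript annotated for nonsense-mediated decay. Over the members, the transcript with most counts was protein-coding for 40, a retained intron for 7 and of this decay kind for 2. Retained introns led for CASP2, CASP4, CASP6, BBC3, TNFRSF1A, TNFRSF10B and DIABLO, with 47.4% to 88.15% of the gene's counts. BAD, BIK and HRK had log2 fold changes of -0.11, 0.14 and 0.14, and of 0.11, 0.37 and 0.17 without knockdown replicate 1. BBC3, which encodes PUMA, did not pass the filter, with 11, 11 and 7 counts in the knockdown and 9, 4 and 7 in the control, nor did BMF with 0 to 5 counts per library. Of the BCL2-like genes placed in neither group, BCL2L13 had a log2 fold change of -0.06 and BCL2L12 had counts in 1 library of each group.

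CYCS, which encodes cytochrome c and lies at chr7:25118656-25125260 on the minus strand of GRCh38, was the tested member whose groups did not overlap. It had 47.0, 46.6 and 47.7 CPM in the knockdown and 50.7, 51.7 and 51.8 CPM in the control, means of 47.1 ± 0.559 and 51.4 ± 0.604 (SD, n = 3). The log2 fold change was -0.13 ± 0.01 (SE), between -0.14 and -0.11 whichever library was left out, and -0.41 when counts were rebuilt from TPM. The exact two-sided permutation p was 0.1, the smallest that 3 against 3 allows. That standard error was 0.105 times the 0.13 that its 238 and 256 counts would give from counting alone, so the replicates lay closer together than counting error. APAF1, the partner of cytochrome c in the apoptosome, had 20.5, 20.9 and 16.8 CPM against 15.4, 15.7 and 24.7 CPM (log2 fold change 0.06 ± 0.23, SE). Its control values spanned the knockdown values.

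The other proteins released from mitochondria gave estimates on both sides of 0. DIABLO, which encodes SMAC, the protein that displaces XIAP from caspases, had 51.6, 39.2 and 32.3 CPM in the knockdown and 41.6, 33.4 and 38.8 CPM in the control (log2 fold change 0.13 ± 0.21, SE). Knockdown replicate 1 was the highest library, and without it the estimate was -0.08. HTRA2, a protease that also removes XIAP, had 37.2, 57.4 and 69.5 CPM against 57.0, 49.8 and 64.7 CPM. For the nuclease ENDOG the values were 34.4, 71.6 and 80.0 CPM against 63.8, 51.1 and 60.6 CPM. Both were lowest in knockdown replicate 1 and highest in knockdown replicate 3, with log2 fold changes of -0.08 and 0.07, and of 0.16 and 0.38 without knockdown replicate 1. AIFM1, a flavoprotein that can move to the nucleus, had 8.37, 8.11 and 9.12 CPM in the knockdown and 9.11, 15.1 and 12.9 CPM in the control. Its estimate of -0.53 ± 0.20 (SE) kept its sign without any 1 library (-0.71 to -0.36), the groups overlapped by knockdown replicate 3 and control replicate 1 alone, and the exact two-sided permutation p was 0.2.

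Of the 4 inhibitors of caspases, 1 had a higher and 3 a lower estimate, and 0 were called. XIAP, which binds and blocks active caspases, had 13.5, 45.3 and 84.2 CPM in the knockdown and 67.8, 41.9 and 89.99 CPM in the control, so its highest library had 6.67 times the CPM of its lowest. Knockdown replicate 3 was near the top of the controls while replicate 1 was far below them. The log2 fold change was -0.49 ± 0.81 (SE), -0.03 without knockdown replicate 1 and -1.20 without knockdown replicate 3. In TPM XIAP had 45.4, 42.0 and 86.0 against 45.2, 36.8 and 81.7, and knockdown replicate 1 no longer stood apart. The transcript with most XIAP counts, of 8591 bases, had 0 counts in knockdown replicate 1 and 47.9 to 126.8 in the other 5 libraries. BIRC6, a very large inhibitor with ubiquitin ligase activity, had 4.19, 14.2 and 26.7 CPM against 33.0, 12.4 and 20.6 CPM (log2 fold change -0.58 ± 0.79, SE). Its estimate was -0.11 without knockdown replicate 1, but -1.31 without knockdown replicate 3 and -2.22 when counts were rebuilt from TPM. Its unadjusted p in edgeR's exact test fell below 0.05 without knockdown replicate 3, and also with the rebuilt counts. In the first run 3 members passed (7.5%, against 4.94% of all genes tested there). In the second 2 did, BIRC6 and CASP4 (5.41%, against 3.68%). BIRC6 was called in neither. BIRC2, the ubiquitin ligase cIAP1, had 3.26, 12.2 and 9.82 CPM against 21.1, 7.20 and 3.53 CPM. Control replicate 1 alone lay above the knockdown values, and the estimate of -0.36 ± 0.82 (SE) became 0.61 without it.

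CFLAR, the decoy of CASP8 known as c-FLIP, had the most counts of all members. It took 37.0% to 50.5% of all counts on the 50 genes, which together held 0.187% to 0.271% of a library. Its CPM were 1188, 822 and 854 in the knockdown and 743, 996 and 795 in the control (log2 fold change 0.18 ± 0.21, SE), with TPM of 262, 213 and 211 against 180, 221 and 190. Knockdown replicate 1 and control replicate 2, which were the lowest of their groups for XIAP and BIRC6, were the highest of their groups for CFLAR. Without knockdown replicate 1 the estimate was -0.00 (-0.0013). A single transcript of 14672 bases received 78.3% of the CFLAR counts.

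Among the caspases, 3 of 5 apoptotic ones had higher and 2 lower estimates, with a median of 0.10. Without knockdown replicate 1, 3 of 5 were lower (median -0.15), and without control replicate 2 as well, 4 of 5 were lower (median -0.12). CASP8, the initiator at death receptors, had 28.4, 21.6 and 34.4 CPM against 29.1, 32.1 and 32.4 CPM, and CASP9, the initiator of the mitochondrial route, had 33.0, 24.3 and 35.1 CPM against 29.1, 27.5 and 23.5 CPM. Both overlapped between the groups (log2 fold changes -0.15 ± 0.19 and 0.21 ± 0.18, SE). CASP6, an executioner caspase, had 23.3, 12.8 and 11.2 CPM in the knockdown and 22.8, 21.6 and 24.7 CPM in the control. Knockdown replicates 2 and 3 lay below all controls and knockdown replicate 1 lay among them. The log2 fold change was -0.51 ± 0.31 (SE) with all libraries, -0.92 without knockdown replicate 1 and -0.95 without knockdown replicate 1 and control replicate 2. In this last comparison 39 of all tested genes were called and none of the members (0), CASP6 having the smallest adjusted p of them at 0.24 in edgeR's exact test. CASP2, an initiator linked to genotoxic stress, had a log2 fold change of 0.10, and of -0.25 without knockdown replicate 1. Transcripts annotated as retained introns received 78.9% of the CASP6 counts and 88.15% of the CASP2 counts.

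CASP10 had the largest estimate of the 38, which depended on the libraries and on the kind of count. This initiator caspase lies next to CFLAR on chromosome 2, at chr2:201182872-201229428, with CFLAR at chr2:201116154-201176687 and CASP8 at chr2:201233443-201361836, all on the plus strand. Its CPM were 55.4, 41.9 and 5.61 in the knockdown and 32.5, 7.86 and 20.6 in the control (log2 fold change 0.76 ± 1.11, SE). The estimate was 0.24 without knockdown replicate 1, 0.39 without control replicate 2 and -0.13 without both. It rose to 1.26 without knockdown replicate 3 and to 1.27 without control replicate 1. High and low values occurred in both groups, and the highest library had 9.86 times the CPM of the lowest. Its 5928-base transcript received 108.9, 53.8 and 0 counts in the knockdown and 50.6, 0 and 0 in the control. In TPM the libraries gave 37.0, 29.1 and 24.6 against 23.5, 35.1 and 36.4, and with counts rebuilt from TPM the estimate turned to -0.06. CASP4, an inflammatory caspase that senses bacterial lipopolysaccharide, had 29.3, 31.8 and 21.8 CPM in the knockdown and 16.5, 18.3 and 25.3 CPM in the control. Knockdown replicates 1 and 2 lay above all controls, the estimate was 0.46 ± 0.24 (SE, exact two-sided permutation p 0.2), and it stayed between 0.33 and 0.66 without any 1 library. With counts rebuilt from TPM the CASP4 estimate was 0.68, and a transcript annotated as a retained intron received 86.3% of the CASP4 counts. CASP1 was too low to test, with 0 to 5 counts per library.

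**Figure D3:**
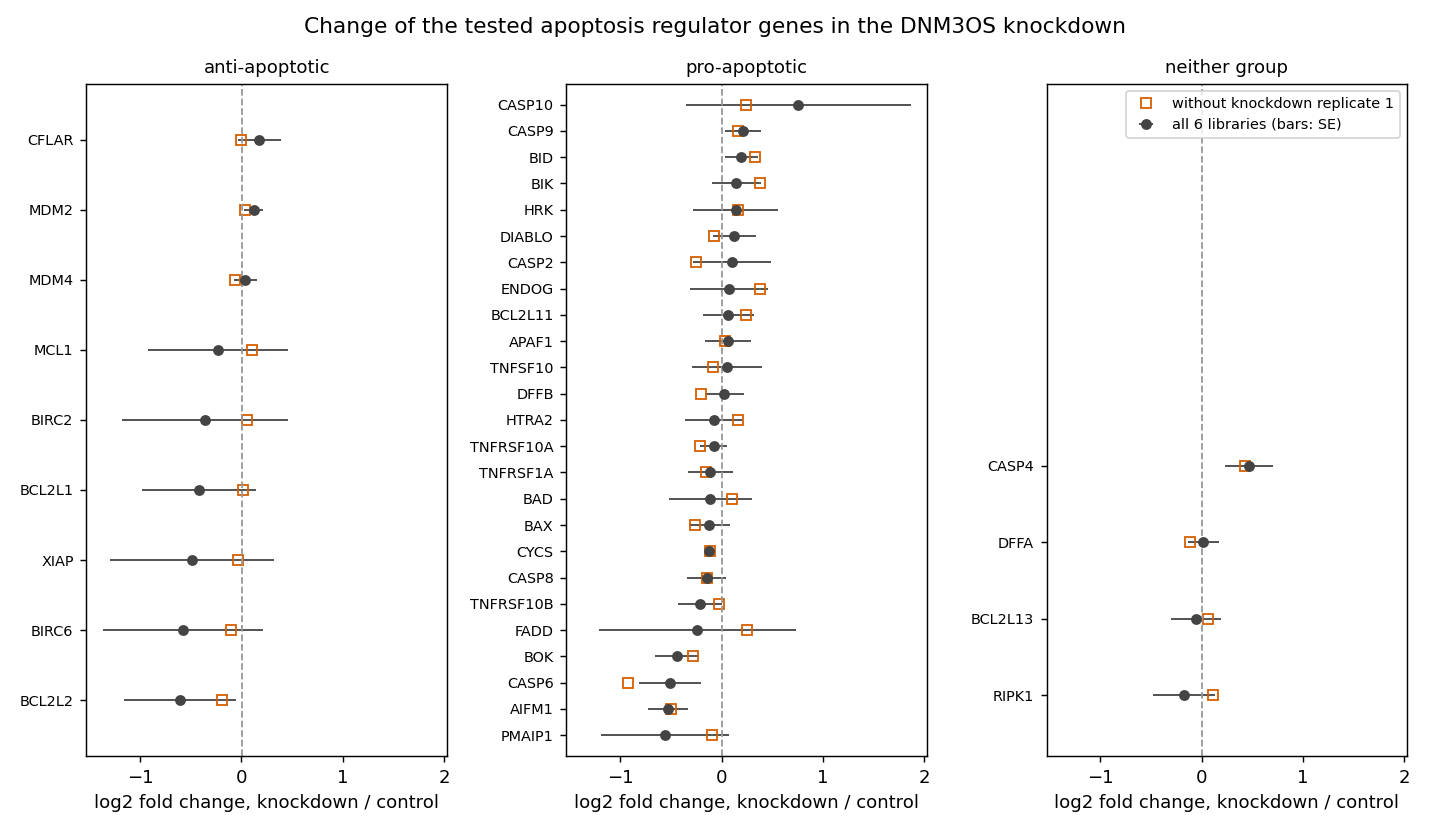
Log2 fold change of each tested member, knockdown over control, with all 6 libraries (filled, bars are the SE from 3 replicates per group) and without knockdown replicate 1 (open squares). The dashed line is the median of all tested genes (0.0045). The survival genes on the left moved towards that line without the 1 library, from a median of -0.36 to -0.0013, whereas CASP6 moved away from it, to -0.92.

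Death receptors and their ligands were near the limit of detection or overlapped between groups. FAS, the receptor of FASLG, had 9, 9 and 6 counts in the knockdown and 6, 3 and 2 in the control, and FASLG had 6, 2 and 3 counts against 0, 0 and 1. In CPM every knockdown value of both genes lay above every control value (FAS 4.19 to 6.08 against 1.18 to 3.42, FASLG 1.35 to 2.79 against 0 to 0.588). FAS had 6 counts in both knockdown replicate 3 and control replicate 1, which differ in CPM only by the scaling. The share of untested genes with such a separation was not taken, so these 2 cannot be set against a background. Neither gene passed the filter on low counts, and most FASLG values were at or under 3 counts. With no filter, FASLG was the 1 of 49 members with an unadjusted p below 0.05 (2.04%, against 2.59% of all genes then tested), and its adjusted p in edgeR's exact test was 1. TNFRSF10B, the TRAIL receptor DR5, had 14.9, 19.6 and 23.2 CPM in the knockdown and 25.6, 18.3 and 21.8 CPM in the control (log2 fold change -0.21 ± 0.22, SE, and -0.03 without knockdown replicate 1). TNFRSF10A, the other TRAIL receptor with a death domain, gave -0.08 and TNFSF10, which encodes TRAIL, gave 0.06. TNFRSF1A, the receptor of tumour necrosis factor, gave -0.11, and the decoy receptor TNFRSF10D had 3 to 10 counts and was not tested. FADD, the adaptor that brings CASP8 to these receptors, had 1.86, 8.11 and 13.3 CPM against 11.4, 1.96 and 13.5 CPM. The low values were again knockdown replicate 1 and control replicate 2, and the log2 fold change of -0.24 ± 0.97 (SE) became 0.25 without knockdown replicate 1. RIPK1, a kinase that can signal survival or death, gave -0.18 (0.11 without knockdown replicate 1), and the adaptor TRADD (4 to 15 counts) was not tested.

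MDM2, a ubiquitin ligase, and its relative MDM4 overlapped between the groups. MDM2 had 183.8, 160.1 and 148.7 CPM in the knockdown and 146.9, 155.8 and 151.7 CPM in the control (log2 fold change 0.12 ± 0.09, SE), and MDM4 had 139.6, 121.6 and 105.9 CPM against 116.8, 123.7 and 118.2 CPM (0.04 ± 0.12, SE). TP53I3, an oxidoreductase, had 4 to 10 counts and was not tested. DFFA, the inhibitor and chaperone of the caspase-activated nuclease, had 132.1, 91.2 and 112.3 CPM against 112.8, 112.6 and 107.6 CPM. The nuclease itself, DFFB, ranged from 23.6 to 36.8 CPM in the knockdown and from 27.5 to 29.1 CPM in the control. Both estimates were 0.02 (-0.12 and -0.21 without knockdown replicate 1) and both had their highest value in knockdown replicate 1.

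Another 51 genes of the pathway, including other BCL2 relatives, further receptors and necroptosis genes, were measured in the same fit. Of these, 35 were tested, 13 higher and 22 lower, with a median of -0.15 and 0 called in either direction. At an unadjusted p below 0.05 there were 2 of 35, against 2.91% of all tested genes, named here after their values were seen. The groups did not overlap for 6 of 35 (5 lower and 1 higher in the knockdown), against 7.97% of all tested genes, and the 2 are among these. API5, an inhibitor of apoptosis found in the nucleus, had 10.2, 15.5 and 11.9 CPM in the knockdown and 22.8, 18.3 and 29.4 CPM in the control, with no overlap (log2 fold change -0.92 ± 0.25, SE). TP73, a transcription factor, had 35.4, 42.6 and 42.8 CPM against 30.2, 29.5 and 21.8 CPM, also without overlap (0.56 ± 0.17, SE). Both had an adjusted p of 1 in edgeR's exact test, and without knockdown replicate 1 they were -0.76 and 0.66. The list's median was -0.01 without that library and -0.10 without control replicate 2 as well.

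The position of the members in the genome bears on how far these values measure the named gene. Of the 50 members, 26 (52%) had a transcript with an exon opposite an exon of another gene, against 22.7% of all genes in the files and 44% of all tested genes. For 19 members over 90% of the counts lay on such transcripts, and without CFLAR these transcripts held 49.2% to 54.0% of the members' counts in a library. These shares take all counts of such a transcript, not only those in the shared bases. The transcript with most counts had 140 of 14672 bases opposite another gene for CFLAR, 101 of 4463 for CASP9 and 1011 of 1841 for FADD. Short stretches of coding sequence from 4 members are printed because reads from them would be identical, apart from strand, to reads of the gene opposite. Each runs 5′ to 3′ on the member's strand, read from GRCh38, with the bases that lie in an exon of the opposite gene in capitals and flanking coding bases of the member in lower case. All are coding in at least 1 annotated transcript and lie outside annotated untranslated regions of both genes.
CFLAR, chr2:201140357-201140460, plus strand, opposite CFLAR-AS1: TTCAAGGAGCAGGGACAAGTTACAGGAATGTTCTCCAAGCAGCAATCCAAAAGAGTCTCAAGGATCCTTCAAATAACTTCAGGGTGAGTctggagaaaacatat
BCL2L1, chr20:31722069-31722218, minus strand, opposite ABALON: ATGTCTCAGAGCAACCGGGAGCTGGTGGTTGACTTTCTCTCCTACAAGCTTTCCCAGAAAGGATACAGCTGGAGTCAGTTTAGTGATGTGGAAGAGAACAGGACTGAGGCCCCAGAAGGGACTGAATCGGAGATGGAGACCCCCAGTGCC
DFFA, chr1:10472323-10472458, minus strand, opposite PEX14: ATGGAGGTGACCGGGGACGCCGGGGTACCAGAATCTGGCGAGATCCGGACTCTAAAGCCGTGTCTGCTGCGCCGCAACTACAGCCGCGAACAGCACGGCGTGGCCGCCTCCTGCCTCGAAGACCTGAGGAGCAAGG
FADD, chr11:70206276-70206440, plus strand, opposite ENSG00000254721: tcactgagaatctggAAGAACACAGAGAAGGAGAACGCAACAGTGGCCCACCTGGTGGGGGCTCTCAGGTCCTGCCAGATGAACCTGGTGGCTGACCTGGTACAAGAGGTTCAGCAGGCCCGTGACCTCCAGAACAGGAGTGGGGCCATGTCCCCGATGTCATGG

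The stretches of BCL2L1 and DFFA begin with the start codon of the protein. For BCL2L1 the capitals are the first 150 of 564 coding bases shared with ABALON, and for FADD 150 of 180 are shown. All counts of BCL2L1 and FADD (100%) lay on transcripts overlapped in this way, and 1011 of the 1841 bases of the FADD transcript were opposite ENSG00000254721. ABALON, CFLAR-AS1 and ENSG00000254721 were not among the quantified genes, so their reads could not be assigned to them.

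For 17 members a gene opposite was itself quantified, and in 12 of them the one with the longest overlap had the higher mean TPM. DIABLO had a mean of 33.2 TPM, while B3GNT4, which overlaps it by 970 bases, had 385 to 586 TPM and 1331 to 1772 counts per library. All DIABLO counts lay on overlapped transcripts. ENDOG had a mean of 82.4 TPM and SPOUT1 opposite it 319. BAD had 83.3 TPM and GPR137 opposite it 168. For the members that were too low to test, TP53I3 had 5.96 TPM and FAM228B opposite it 319, FAS had 7.47 and ACTA2 99.0, and BAK1 had 0.975 and GGNBP1 82.2. The reverse order held for CFLAR, with a mean of 213 TPM against 91.1 for the pseudogene IMPDH1P10. None of the partners with the longest overlap that were tested had an adjusted p other than 1 in edgeR's exact test. With overlapped transcripts left out of the sums, 21 members could be tested and 0 were called. The median of the survival genes was then -0.32, with knockdown replicate 1 included. It covered only XIAP (-0.50), BIRC2 (-0.38), MCL1 (-0.25) and MDM4 (0.0063). The median of the death genes was 0.01. How much of any member's value came from the other strand was not tested.

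**Figure D4:**
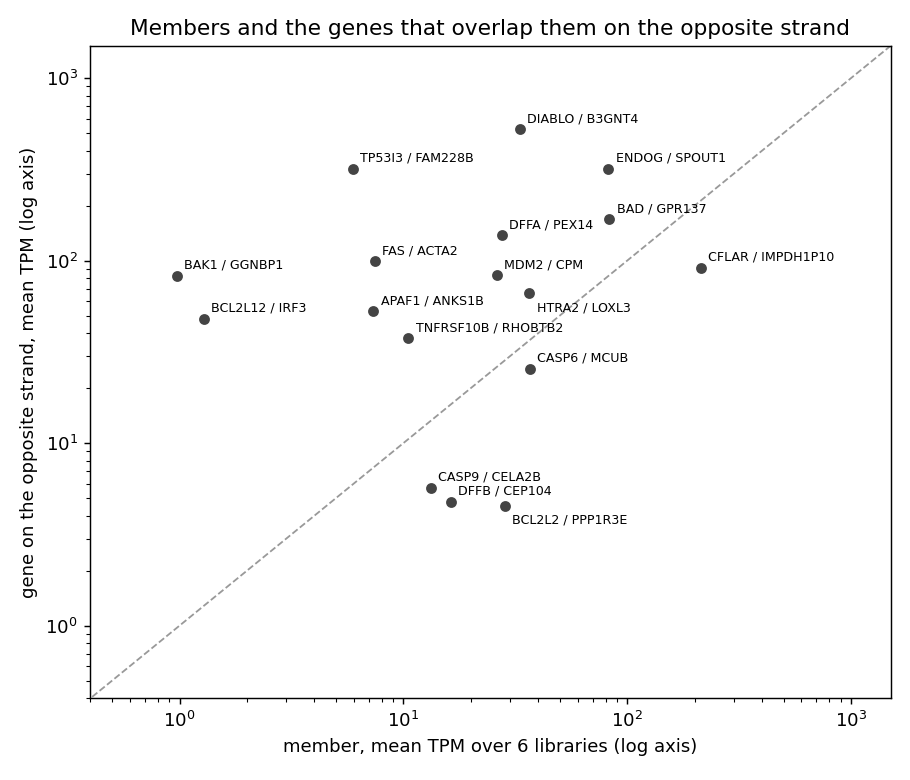
Mean TPM over 6 libraries of 17 members (horizontal, log axis) and of the quantified gene with the longest exon overlap on the opposite strand (vertical, log axis), with the line of equal TPM dashed. In 12 pairs the opposite gene lay above the line, DIABLO with B3GNT4 and TP53I3 with FAM228B among them, and CFLAR lay below it.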

How the data were processed

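Samples were grouped by their labels. The authors quantified paired reads of the 6 libraries with kallisto 0.43.0 against Ensembl transcripts of GRCh38. The deposited files give per transcript the estimated count (not normalized), the TPM and an effective length. The strand setting is not given in the sources used here. Gene values are sums of these counts by GENCODE release 44, which held 155518 of 173259 quantified transcripts, rounded to whole numbers. Genes were filtered with filterByExpr (minimum count 10), scaled by TMM and compared by the exact test of edgeR 4.0.16 (R 4.3.3), with Benjamini-Hochberg adjustment over 11814 genes. A call needed a change of at least 2-fold and an adjusted p under 0.05. CPM use TMM-scaled library sizes. Standard errors come from the replicates' log2 CPM with a prior count of 2. Log2 fold changes come from edgeR's fit, not from the difference of mean log2 CPM. The 2 quantities can differ where replicates scatter, so a standard error is only a guide to the estimate beside it. Permutation tests were exact, two-sided over 20 assignments of the 6 samples, the smallest p being 0.1. The counting error of a difference was taken from the summed counts of each group. Intervals and floors cover counting error only. The biological coefficient of variation was 0.23. Overlaps were found with bedtools 2.31.1 on the reference of the same build.

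The members and lists were chosen with earlier results of these data known. Named members were those past the threshold, tested ones whose groups did not overlap, the 10 largest changes, the 10 highest CPM and 21 fixed names, 31 in all. The 19 members outside this rule are given by their estimates, ranges or counts so that each is accounted for, and the fuller values of FADD and FASLG were chosen after they were seen. Alternatives were the quasi-likelihood test of edgeR, without a block and with replicate number as one, DESeq2 1.42.0, RLE scaling, no filter, length-scaled TPM counts, overlapped transcripts left out, and each library left out. Leaving out both knockdown replicate 1 and control replicate 2 was added after seeing the data. The scripts were tested on simulated data, with 200 of 11386 genes changed by a log2 of 2. At an adjusted p below 0.05 in edgeR's exact test, 193 were recovered, 0 with the wrong sign, beside 26 other calls. Smaller changes and genes with few counts were not among those changed, so it does not show what would be missed among the members. A gene of the pathway and the list built on its targets are not reported here.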

Additional observations from a re-analysis of the deposited data

How the results depend on the processing

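The count of called members was 0 under every alternative run, against 0 to 39 of all genes tested in a run. Between 0 and 3 members had an unadjusted p below 0.05 in the test of a run, against 1.11% to 8.84% of all tested genes. The 3 were XIAP, BIRC6 and CASP10 in edgeR's exact test without knockdown replicate 3. They were 7.5% of 40 tested members, against 4.94% of all genes tested there. With length-scaled TPM counts BIRC6 and CASP4 passed (5.41%, against 3.68%). CASP6 passed without knockdown replicate 1 (2.56%, against 2.84%) and without control replicate 2 as well (2.56%, against 8.84%). PMAIP1 passed without knockdown replicate 2 (2.63%, against 4.46%), and FASLG with no filter. The survival genes' median lay between -0.56 and -0.0013 with 1 library left out, at the upper end without knockdown replicate 1. The death genes' median lay between -0.079 and -0.0069 with 1 library left out, at the upper end without control replicate 2. It was 0.013 without overlapped transcripts and -0.12 without knockdown replicate 1 and control replicate 2, with the filter run anew. Deviations from the group means of samples with the same replicate number correlated at -0.40, -0.34 and 0.23. With 3 samples per group these values cannot show whether equal numbers mark a shared culture or batch, which was not tested. With the number as a replicate block, the quasi-likelihood test called 0 members and 0 genes, the medians were -0.22 and -0.07, and DFFA alone of 27 named members changed sign, to -0.0017.

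With length-scaled TPM counts 7 named members changed sign, to 0.12 for BIRC2, 0.45 for MCL1, 0.078 for XIAP, -0.060 for CASP10, -0.016 for CASP9, -0.014 for DFFA and -0.15 for MDM2. Without knockdown replicate 1 and control replicate 2, 6 changed sign, to -0.060 for APAF1, -0.13 for CASP10, -0.10 for DFFA, -0.15 for DIABLO, 0.079 for HTRA2 and -0.026 for MDM4. Leaving out 1 library changed the sign of 13. Their ranges were -0.063 to 0.31 (APAF1), -0.26 to 0.030 (BAX), -0.81 to 0.012 (BCL2L1), -0.13 to 0.25 (BCL2L11), -0.80 to 0.61 (BIRC2), -0.30 to 0.0014 (CASP8), -0.0013 to 0.32 (CFLAR), -0.12 to 0.14 (DFFA), -0.076 to 0.27 (DIABLO), -0.16 to 0.38 (ENDOG), -0.28 to 0.16 (HTRA2), -0.62 to 0.17 (MCL1) and -0.059 to 0.13 (MDM4). The cause was not tested. PMAIP1 did not pass the filter with length-scaled TPM counts, and members under the filter were not tested at this depth.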
